A study of Mus musculus with 7 samples.

Results

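The lens of the embryonic mouse eye sits directly in front of the retina, and its genes were followed here through bulk RNA-seq libraries of dissected E16 retina. The genes are 10 of the 48440 listed in the count table: the crystallins *Cryaa*, *Cryab*, *Cryba1*, *Cryba2*, *Cryba4*, *Crybb1*, *Crybb3* and *Crygb*, the beaded filament gene *Bfsp1* and the transcription factor gene *Foxe3*. All 10 were found by gene symbol, each in 1 row, and all 10 passed the expression filter that left 20019 genes for testing. They were chosen from the measured counts of these same libraries, among them the low *Foxe3* counts in KO, so their levels and fold changes between genotypes are given as a description, with no test.

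There were 7 libraries, all from embryos that carry the *Chx10-Cre* transgene, whose Cre recombinase is active in retinal progenitors. The WT library (genotype label Chx10Cre) has no floxed *Ptbp1* allele. The 3 Het libraries (Chx10-Cre;Ptbp1lox/WT) carry 1 floxed copy and the 3 KO libraries (Chx10-Cre;Ptbp1lox/lox) carry 2, and Cre removes the promoter and first exon of *Ptbp1* from a floxed copy. Each library is a pool of frozen retinas: 6 for WT, 5, 5 and 6 for Het1, Het2 and Het3, and 4, 4 and 6 for KO1, KO2 and KO3. Values of a genotype are given below in the order of these pool numbers. The sources do not say whether pools of a genotype came from separate litters, so p-values measure the spread between pools. Because the Cre is driven in retinal progenitors, lens cells are not the cells in which the deletion was designed to happen.

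Counts on genes summed to between 120593979 and 171117305 per library. *Ptbp1* stood at 381 CPM, the TMM-normalized counts relative to library size that are used throughout, in WT, at 210 to 234 CPM in Het, and at 27.9, 6.04 and 46.9 CPM in KO1, KO2 and KO3, so the targeted gene followed the labels. A list of 9 retinal genes, which includes *Rax*, a homeobox factor of retinal progenitors, summed to 2370 to 2755 CPM in every library, and *Rax* ranged from 153.9 to 171.3 CPM. The libraries were therefore retina by their defining genes. Het1 stood apart from the rest by its genes of muscle, skin and pigmented cells, and KO3 stood apart from KO1 and KO2, as given below beside the lens genes.

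Crystallins are the soluble structural proteins that fill the fiber cells of the lens and give it its refractive power. The alpha crystallins are small heat shock proteins that act as chaperones, while the beta and gamma crystallins share a different fold and serve as packing proteins. Fiber cells arise at the lens equator from a monolayer of epithelial cells on the anterior face. *Foxe3* is a forkhead factor of that epithelium and is switched off as cells become fibers, and *Bfsp1* encodes filensin, a subunit of the beaded filament found in fibers. Lens transcripts in a retinal dissection could come from fibers, from epithelium or from retinal cells that express some of the genes at a low level, and in bulk RNA fewer cells of a type and less RNA per cell cannot be told apart.

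The crystallin members differ in the letters just upstream of their transcription starts, which are shown because lens expression of many crystallins is known to run through sites for large MAF factors close to the start. RefSeq promoter windows of GRCm38.p6 were at hand for 9 of the 10 genes, the exception being *Cryab*. The 120 bases before the start of 5 of them follow, read 5′ to 3′ on the gene's strand. Capitals mark TGCTGA or its reverse complement TCAGCA, part of the MAF recognition site, and TATAAA or TATATA where it begins between 40 and 20 bases before the start. *Cryba1* and *Crybb1* have both features, *Crybb3* has the MAF letters alone, *Crygb* has only the TATA letters, and *Foxe3* of the epithelium has neither. The windows are chr11:77725294-77725413 on the minus strand for *Cryba1*, chr5:112255700-112255819 on the plus strand for *Crybb1*, chr5:113081585-113081704 on the minus strand for *Crybb3*, chr1:65082291-65082410 on the minus strand for *Crygb* and chr4:114926068-114926187 on the minus strand for *Foxe3*.
Cryba1: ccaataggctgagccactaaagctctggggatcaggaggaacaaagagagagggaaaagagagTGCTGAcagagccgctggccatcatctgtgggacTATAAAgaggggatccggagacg
Crybb1: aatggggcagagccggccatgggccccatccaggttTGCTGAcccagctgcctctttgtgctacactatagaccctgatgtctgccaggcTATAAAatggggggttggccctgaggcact
Crybb3: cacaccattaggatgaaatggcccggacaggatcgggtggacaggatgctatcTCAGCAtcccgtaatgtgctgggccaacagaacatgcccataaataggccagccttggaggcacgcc
Crygb: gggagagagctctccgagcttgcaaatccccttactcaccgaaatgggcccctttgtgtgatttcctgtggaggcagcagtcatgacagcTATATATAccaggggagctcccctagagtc
Foxe3: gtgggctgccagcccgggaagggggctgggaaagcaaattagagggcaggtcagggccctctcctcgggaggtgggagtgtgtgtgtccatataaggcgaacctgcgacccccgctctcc

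On either strand, TGCTGA occurred within 120 bases before the start in 5 of the 7 crystallin windows, at -108 in *Cryaa*, -57 in *Cryba1*, -77 in *Cryba4*, -84 in *Crybb1* and -67 in *Crybb3*. Of all 32817 promoter windows of the same length, 8.2% held it there. Within 250 bases it occurred in 6 of the 7, against 16.1% of all windows. TATAAA or TATATA, on the gene's strand only, began at the stated distance in 4 of the 7 crystallin windows (*Cryaa*, *Cryba1*, *Crybb1* and *Crygb*) and in 2.74% of all windows. The windows of the 8 crystallins outside the 10 genes differed in this: TGCTGA occurred within 120 bases in 0 of the 8 and within 250 bases in 4, and the TATA letters in 6. The MAF and TATA letters do not overlap each other in these windows. A match describes the sequence and is not a measured binding site, and no match says only that these letters are not in the window.

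Among the 10 genes, 4 were highest in Het3 (*Cryaa*, *Cryab*, *Crybb3* and *Foxe3*) and 6 in KO3 (*Cryba1*, *Cryba2*, *Cryba4*, *Crybb1*, *Crygb* and *Bfsp1*). All 8 crystallins were lowest in KO1. The Het pools kept one order for every gene and the KO pools kept only their highest: Het3 was above Het2 and Het2 above Het1 in 10 of 10, and KO3 was above KO1 and KO2 in 10 of 10, while KO2 was above KO1 in 8. Pools of a single genotype thus differed widely, and in 8 of the 10 genes the ranges of Het and KO overlapped. WT lay within the range of the 3 KO libraries in 9 of the 10 genes and within the Het range in 5, and it was below all 3 Het libraries in the other 5.

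**Figure D1:**
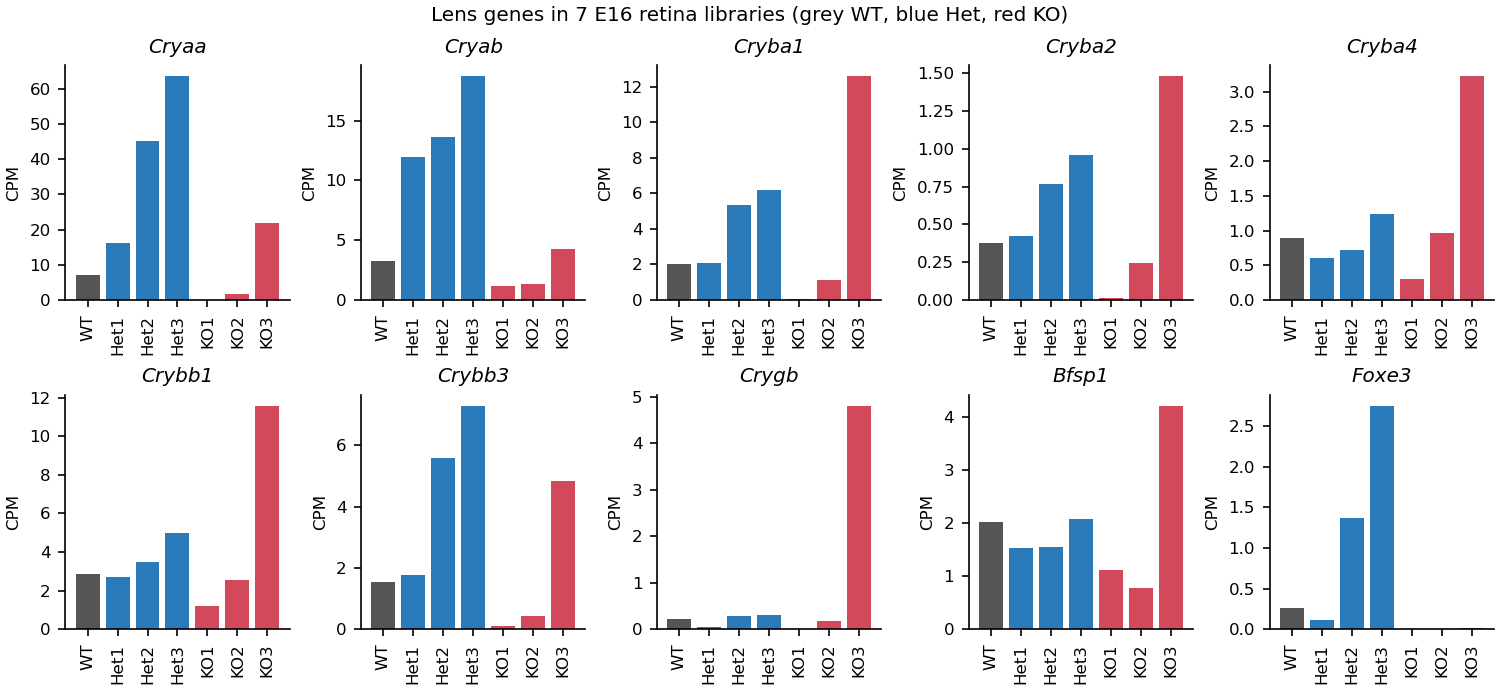
Expression of the 10 lens genes in each library, as bars of TMM-normalized CPM on a linear axis that starts at 0 (grey WT, blue Het, red KO; 1 bar is 1 pool). *Cryaa*, *Cryab*, *Crybb3* and *Foxe3* are highest in Het3 and the other 6 genes in KO3, while in 8 panels KO1 and KO2 both lie below WT and every Het pool.

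*Cryaa* encodes alpha A crystallin, the lens-enriched alpha crystallin. It lies on chromosome 17 from 31677807 to 31681733 (GRCm38, plus strand), where its exons overlap those of another gene on the opposite strand. It was measured at 6.97 CPM in WT, at 16.2, 45.1 and 63.5 CPM in Het1, Het2 and Het3, and at 0.0528, 1.73 and 21.7 CPM in KO1, KO2 and KO3. Its Het and KO libraries overlapped, because KO3 was above Het1. Between KO1, with 7 counts, and KO3, with 2897 counts, *Cryaa* differed by 412-fold within a single genotype. The Het mean was 41.6 ± 23.9 CPM and the KO mean 7.84 ± 12.1 CPM (SD, n = 3 each), a fitted log2 fold change of -2.41 that moved to -5.54 without KO3.

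*Cryab* encodes alpha B crystallin, the stress-inducible chaperone that is also abundant in heart and skeletal muscle. It lies on chromosome 9 from 50751325 to 50756636 (plus strand), where its exons overlap those of *Hspb2* on the opposite strand. It was at 3.29 CPM in WT, at 11.98, 13.7 and 18.7 CPM over the Het pools, and at 1.12, 1.31 and 4.23 CPM over the KO pools. Every KO library was below every Het library, and WT was between KO2 and KO3. The Het mean was 14.8 ± 3.50 CPM and the KO mean 2.22 ± 1.74 CPM (SD, n = 3 each), which gave a fitted log2 value of -2.73. Of the crystallins *Cryab* varied least between Het pools, with Het3 at 1.56 times Het1.

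The 2 alpha crystallins did not keep a fixed proportion. *Cryaa* had 3.30 counts for each *Cryab* count in Het2 and 3.40 in Het3, 2.12 in WT and 1.35 in Het1, and 0.0470, 1.31 and 5.14 in KO1, KO2 and KO3. Het1 was also the library with muscle genes: the 8 genes of the skeletal muscle list summed to 254 CPM in Het1 and to 5.48 to 6.89 CPM in the other 6 libraries, with *Myh3* at 88.8 and *Acta1* at 64.2 CPM in Het1. *Hspb2*, a small heat shock protein gene of muscle, had 1.28 CPM there and at most 0.218 CPM elsewhere. KO2, with 6.68 CPM of the muscle list, had nearly the same proportion of *Cryaa* to *Cryab* as Het1, and the part of muscle in the *Cryab* level of Het1 was not tested.

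The acidic beta crystallins behaved differently from the alpha pair. *Cryba1* (chromosome 11, 77718615 to 77725283, minus strand), which encodes the beta A3 and A1 crystallins, stood at 2.04 CPM in WT, at 2.09, 5.32 and 6.19 CPM over the Het pools, and at 0.0679, 1.09 and 12.6 CPM over the KO pools. KO3 was thus the highest library and KO1 the lowest, with all Het libraries between them. The means were 4.53 ± 2.16 CPM in Het and 4.58 ± 6.94 CPM in KO (SD, n = 3 each), and the log2 fold change of 0.016 became -2.96 without KO3.

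*Cryba2* (chromosome 1, 74889934 to 74893143, minus strand), for beta A2 crystallin, was the lowest crystallin per kilobase of exon. Its values were 0.377 CPM in WT, 0.424, 0.764 and 0.962 CPM over the Het pools, and 0.0151, 0.243 and 1.48 CPM over the KO pools. *Cryba4* (chromosome 5, 112246493 to 112252518, minus strand), for beta A4 crystallin, was at 0.888 CPM in WT, at 0.606, 0.714 and 1.24 CPM over the Het pools, and at 0.302, 0.958 and 3.22 CPM over the KO pools. In both genes the Het libraries lay inside the range of the KO libraries. KO1 had 2 counts of *Cryba2* and 40 of *Cryba4*. Their log2 fold changes were -0.31 and 0.81.

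Of the basic beta crystallins, *Crybb1* (chromosome 5, 112255815 to 112269585, plus strand) starts next to *Cryba4*, on the opposite strand. It was at 2.87 CPM in WT, at 2.71, 3.48 and 4.98 CPM over the Het pools, and at 1.19, 2.53 and 11.6 CPM over the KO pools. The 2 neighbors had in common that KO3 was above Het3 (2.60 times for *Cryba4* and 2.33 times for *Crybb1*) and KO1 was lowest. Their exons do not overlap each other.

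*Crybb3* (chromosome 5, 113075839 to 113081584, minus strand), for beta B3 crystallin, was instead highest in Het3. It was at 1.54 CPM in WT, at 1.76, 5.59 and 7.29 CPM over the Het pools, and at 0.0981, 0.433 and 4.83 CPM over the KO pools. It shared this order of libraries, Het3, Het2, KO3, Het1, WT, KO2 and KO1, with *Cryaa*. The log2 fold change of *Crybb3* was -1.45, and without KO3 it was -4.19.

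*Crygb* encodes gamma B crystallin, one of the gamma crystallins of the compact lens core, and lies in the gamma cluster of chromosome 1 from 65080219 to 65082288 (minus strand). It had 32 counts in WT, 8, 34 and 45 over the Het pools, and 0, 22 and 640 over the KO pools. These are 0.215 CPM in WT, 0.0471 to 0.297 CPM in Het, and 0.167 and 4.80 CPM in KO2 and KO3. A single library, KO3, held 16.2 times the level of the next highest, Het3. A count of 0 in KO1 allows up to 3 counts, or 0.0226 CPM. The log2 fold change of 2.99 was set by KO3 and was -1.30 without it.

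*Crygb* counts are uncertain among its paralogs, since 29.4% of the 50-base words in its annotated transcripts also occur in transcripts of *Cryga*, *Crygc* or the overlapping locus *Gm28845*. The other 9 members shared no such word with another gene. Each transcript was read in its own direction, so overlaps on the opposite strand, as for *Cryaa* and *Cryab*, are not covered. The other 5 gamma crystallins of that cluster, which are not among the 10 genes, were highest in KO3 as well: *Cryga*, *Crygc*, *Crygd*, *Cryge* and *Crygf* were at 3.05, 1.63, 6.87, 4.61 and 6.34 CPM there. In the other 6 libraries they ranged from 0 to 1.07 CPM. The high level in KO3 was thus found for all 6 genes of the cluster, although their counts cannot be fully separated from one another.

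*Bfsp1* (chromosome 2, 143826528 to 143863173, minus strand) was the steadiest of the 10 genes outside KO3. It was at 2.03 CPM in WT, at 1.53, 1.55 and 2.08 CPM over the Het pools, and at 1.12, 0.783 and 4.22 CPM over the KO pools. KO2 rather than KO1 was its lowest library. The Het mean was 1.72 ± 0.314 CPM and the KO mean 2.04 ± 1.89 CPM (SD, n = 3 each), and the log2 fold change was 0.25, or -0.85 without KO3.

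*Foxe3*, a gene of 1 exon on chromosome 4 from 114925147 to 114926013 (minus strand), had 39 counts in WT, 20, 163 and 417 over the Het pools, and 0, 0 and 2 over the KO pools. On the CPM scale WT was at 0.262, Het1 to Het3 at 0.118, 1.37 and 2.75, and KO3 at 0.0150. Every KO library was below every Het library and below WT. The 2 libraries at 0 allow up to 0.0226 CPM (KO1) and 0.0228 CPM (KO2), at 3 counts each. The Het libraries themselves spanned 23.3-fold. Over the pooled counts of each genotype, 600 against 2, Het was 270-fold higher, and without Het3 the same ratio was 126. These ratios leave out the spread between pools. *Foxe3* was chosen with these counts known, so no interval is given for them.

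Per kilobase of exon, the mean level over the 7 libraries followed the order *Cryaa* (10.7 CPM per kb), *Cryab* (5.25), *Crybb1* (4.26), *Cryba1* (2.63), *Cryba4* (1.35), *Crybb3* (1.32), *Crygb* (1.31), *Bfsp1* (0.796), *Foxe3* (0.743) and *Cryba2* (0.511). The ranges over libraries overlapped between every pair of neighbors in that order. Summed per kilobase over the 8 crystallins, the level was 12.2 CPM per kb in WT, 21.9, 42.2 and 58.1 over the Het pools, and 2.45, 6.77 and 47.7 over the KO pools. By this sum KO3 was between Het2 and Het3, and WT was between Het1 and KO2.

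The size of that sum overlapped between Het and KO, while the share of the alpha crystallins in it did not. The 2 alpha crystallins made up 72.7%, 73.4% and 74.5% of it over the Het pools, but 46.0% in WT and 32.0%, 25.4% and 27.95% over the KO pools. This even share of the Het pools had uneven parts. *Cryaa* took 35.6%, 51.5% and 52.7% in Het1, Het2 and Het3, and *Cryab* took 37.0%, 21.9% and 21.8%. *Crybb1* took 8.38% to 12.6% in Het and 24.0% in WT, against 49.3%, 37.9% and 24.7% over the KO pools. Some other shares overlapped: *Crygb* took 0.340% to 1.07% in Het, 2.79% in WT, and 0%, 3.89% and 15.9% in KO1, KO2 and KO3, and *Cryab* alone took 21.8% to 37.0% in Het and 5.996% to 31.0% in KO. These shares come from the members themselves and carry no test, and those of KO1 rest on only 378 crystallin counts.

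**Figure D2:**
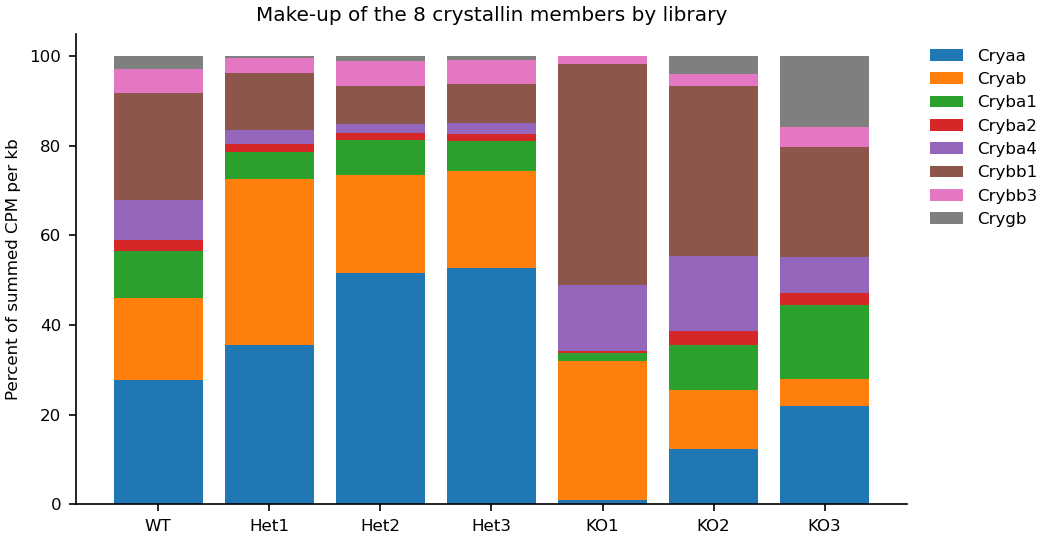
Share of each crystallin in the summed level of the 8 crystallin members, in percent of CPM per kilobase of exon, for each library. *Cryaa* and *Cryab* together take 72.7% to 74.5% of the bar in the 3 Het libraries and 25.4% to 46.0% in the other 4.

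The comparison of the summed crystallins with *Foxe3* of the epithelium asks whether these 2 measures rose and sank together from pool to pool. Whether the crystallin transcripts, those of *Cryaa* and *Cryab* included, came from fibers alone was not tested, so the sum does not stand for the fiber compartment. They did so in part. Het3 and Het2 led in both, with 103 and 75.0 CPM of summed crystallins and 2.75 and 1.37 CPM of *Foxe3*. In KO3 they parted: its 64.5 CPM of crystallins was the third highest sum, while *Foxe3* was at 0.0150 CPM. Het1, with 35.8 CPM of crystallins, had less *Foxe3* (0.118 CPM) than WT (0.262 CPM), which had 18.2 CPM of crystallins.

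Expressed as *Foxe3* counts per 1000 counts of *Foxe3* and the 8 crystallins together, WT had 14.2 (95% exact binomial interval 10.1 to 19.4, for counting error only). Het1, Het2 and Het3 had 3.28 (2.003 to 5.06), 17.9 (15.3 to 20.9) and 25.9 (23.5 to 28.5). KO3 had 0.233 (0.0282 to 0.841), that is 2 *Foxe3* counts beside 8590 crystallin counts. Among these libraries KO3 had the lowest share above 0 and Het1 the next lowest, and the intervals hold no spread between pools. KO1 and KO2, at 0 of 378 and 0 of 1114 counts, allow up to 7.94 and 2.69 per 1000 at 3 counts. Their 95% exact binomial intervals reach 9.711 and 3.306, both above the 3.28 of Het1. Their depth therefore does not place them below Het1.

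**Figure D3:**
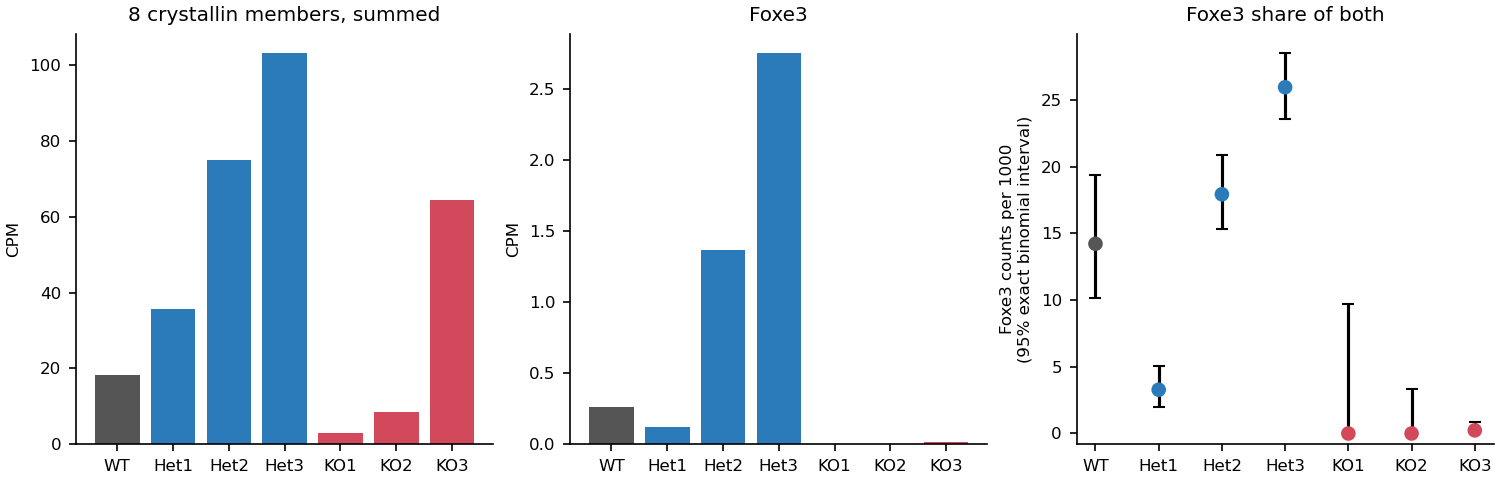
Summed CPM of the 8 crystallins (left), CPM of Foxe3 (middle) and Foxe3 counts per 1000 counts of Foxe3 plus crystallins with 95% exact binomial intervals (right), by library. KO3 has 64.5 CPM of crystallins, near the Het pools, but 0.0150 CPM of Foxe3.

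Across all tested genes, the fit of KO against Het (edgeR's quasi-likelihood test, Benjamini-Hochberg adjusted p below 0.05 and a change of more than 1.2-fold) placed 3.21% of genes lower and 4.01% higher in KO. Of the 10 members, 5 had a positive and 5 a negative log2 fold change, with a median of -0.14 against -0.0047 for all genes tested. In 2 of the 10, *Cryab* and *Foxe3*, every KO library was below every Het library, as in 17.7% of the genes tested. Since the genes were picked with this contrast in view, nothing is read from these counts. The direction depended on single libraries. Without KO3 all 10 log2 fold changes were negative and the median was -2.71. That median was the same with *Foxe3*, then at 0 in both remaining KO libraries, set to its bound of at least 120-fold lower. The median turned positive without KO1 (0.404), without KO2 (0.265) or without Het3 (0.139). It stayed negative without Het1 (-0.453) or without Het2 (-0.059).

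**Figure D4:**
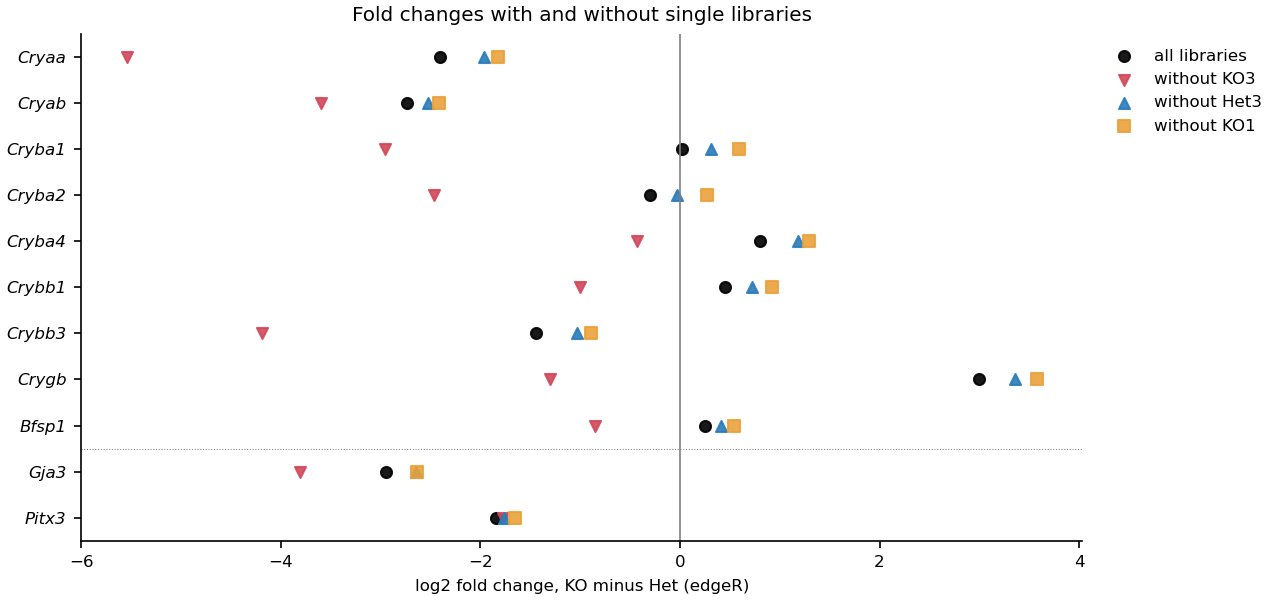
Log2 fold change between KO and Het from edgeR with all libraries (circles) and without KO3, Het3 or KO1 (other symbols), for 9 of the 10 genes and, under the dotted line, 2 further lens genes. Foxe3 is left out because its fitted value rests on 2 KO counts. Without KO3 each of the 9 genes lies left of 0, while Gja3 and Pitx3 lie left of 0 in every setting drawn.

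Lens genes outside the 10 were read from the same fit. The lists hold 26 such genes, and 22 were tested, of which 3 passed both limits, all lower in KO (13.6%, beside 3.21% of all genes). The 22 tested genes had 12 negative and 10 positive log2 fold changes, with a median of -0.17. Since the members had been taken out of these lists for their values, the counts describe what is left and are not a test of the lens as a whole. None passed upward by edgeR or by DESeq2, and 1 gene, *Birc7*, had an unadjusted edgeR p below 0.05 in that direction.

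Of the genes that passed, *Gja3* and *Pitx3* are described. *Gja3*, for connexin 46 of fiber cells, was at 0.0336 CPM in WT, at 0.442, 0.705 and 0.969 CPM over the Het pools, and at 0.0453, 0.0532 and 0.173 CPM over the KO pools. It fell by 2.95 on the log2 scale (edgeR adjusted p = 0.0259, standard error 0.574), and WT was the lowest of the 7 libraries. *Pitx3*, a homeobox factor needed for lens formation, was at 0.787 CPM in WT, at 1.37, 1.44 and 1.65 CPM over the Het pools, and at 0.294, 0.570 and 0.375 CPM over the KO pools. It fell by 1.85 on the log2 scale (edgeR adjusted p = 0.0117, standard error 0.260). *Pitx3* was even among the Het pools, and WT was nearer to KO2 than to any Het library.

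Leaving out single libraries changed the calls more than the folds. *Pitx3* passed in 10 of 11 alternative fits, with adjusted p up to 0.0517 (without Het2), and *Gja3* in 7, with adjusted p up to 0.0905 (without KO2). With 1 library left out, their log2 fold changes stayed between -2.15 and -1.65 and between -3.81 and -2.63. The number of lens genes called lower was 0 without Het2, when 4 had an unadjusted edgeR p below 0.05, 1 each without Het3, KO1 or KO2, and 5 without KO3. The number of all genes called moved as well, from 1445 to 386 without Het2. The 5 called without KO3 were *Pitx3*, *Gja3*, *Mip*, *Bfsp2* and *Crygn*, the last 3 of which are named here after their values were seen.

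Most other lens genes did not pass. Of the epithelium list, *Cdh1* (E-cadherin) ranged from 3.54 to 7.43 CPM in Het and from 2.29 to 4.38 CPM in KO, and *Pdgfra*, which is also made outside the lens, from 9.75 to 14.0 CPM and from 11.4 to 12.6 CPM. *Fyco1* and *Tdrd7*, cataract genes that other tissues use as well, had Het means of 21.7 and 16.6 CPM and KO means of 19.6 and 17.2 CPM, with log2 fold changes of -0.15 and 0.044. The fiber list was thin elsewhere: *Lim2*, for a major membrane protein of fibers, had 0 counts in all 7 libraries, and *Lenep*, *Dnase2b* and *Lgsn* were too low to test. *Lim2* was thus missing from libraries in which crystallin transcripts were counted.

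None of the transcription factors shared by lens and retina passed, and 7 of 7 were tested. Their sum was 1425 to 1531 CPM, and *Pax6* and *Six3*, its most abundant members, had log2 fold changes of -0.051 and -0.11. They offer no lens measure here because the retina expresses them. Genes with crystallin in the name but no structural role in the mouse lens split. Of 5 tested, *Crym* (a thyroid hormone binding protein) rose, with a log2 fold change of 0.63 (edgeR adjusted p = 0.0197, standard error 0.110). *Crybg3* fell by 0.39 on the log2 scale (edgeR adjusted p = 0.0178, standard error 0.0660). *Cryzl1* and *Cryl1* did not pass, and *Cryz* (adjusted p = 0.0271, edgeR) had a log2 fold change of -0.20, short of the 1.2-fold limit. *Crym* was at 54.7 CPM in WT, 53.1 to 61.9 in Het and 76.9 to 103 in KO, with KO3 the lowest KO library, and so it did not share the order of the lens crystallins. The *Crym* call was lost without Het2, Het3 or KO2 (edgeR adjusted p = 0.0857, 0.0765 and 0.0661) and that of *Crybg3* without Het2 or Het3 (0.0745 and 0.0703), with log2 fold changes of 0.58 to 0.65 and -0.38 to -0.37.

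Apart from *Hspb6*, the small heat shock relatives of the alpha crystallins were highest in Het1. None of the 6 tested passed, and the median log2 fold change was -1.74 with all 6 negative. *Hspb1* was at 9.75 CPM in Het1 and at 0.613 to 1.60 CPM in the other libraries. *Hspb6*, the most abundant, ranged from 7.865 CPM in KO2 to 9.658 CPM in KO1, with 9.577 CPM in Het1. It had a log2 fold change of -0.031. The list summed to 27.6 CPM in Het1 and to 10.5 to 13.04 CPM elsewhere, so Het2 and Het3, which led in *Cryab*, did not stand out in it.

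Marker lists of other tissues moved with the lens genes in different ways. The ciliary margin, the rim of the retina that borders the lens, is marked by *Msx1*, *Otx1*, *Wfdc1* and *Bmp4*, and their sum was 43.4 CPM in WT, 27.0, 38.7 and 58.1 CPM over the Het pools, and 4.18, 5.73 and 50.9 CPM over the KO pools. All 4 genes were lower in KO1 and KO2 than in any other library. Erythroid genes ran likewise, with 338 CPM in WT, 188 to 527 CPM in Het, and 36.6, 24.1 and 297 CPM in KO1, KO2 and KO3, and *Hbb-bs* and *Hba-a1* led that list. The 2 KO pools that were poor in crystallins were also poor in both of these lists, and the part of the rim and of blood in the lens signal was not tested.

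The summed surface ectoderm and cornea genes were highest in Het1 and next in KO3, led by keratins of the surface epithelium. Their 6 genes summed to 234 CPM in Het1, 59.98 CPM in KO3 and 3.11 to 6.43 CPM in the other 5 libraries. *Krt5* was at 106 CPM in Het1 and 24.4 CPM in KO3, and *Krt15* at 101 and 28.3 CPM. *Krt12*, the keratin of the corneal epithelium, went another way, with 13.6 CPM in Het1 but 0.143 CPM in KO3, the lowest of the 7 libraries. In KO1 *Krt5*, *Krt14* and *Krt17* had 0 counts. Over the KO pools this list and the crystallin sum ran in the same order, KO3, KO2 and KO1. Among the Het pools, Het1, with the most of these genes, had the lowest crystallin sum. The part of the surface ectoderm in the lens signal was not tested.

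Pigmented cells, periocular mesenchyme and muscle were highest in Het1, and the first 2 of these lists were next highest in Het3 and KO3. The pigment list summed to 528 CPM in Het1, 60.4 CPM in Het3, 56.2 CPM in KO3 and 21.1 to 31.7 CPM in the rest. It was led by *Pmel* and *Dct*, with *Rpe65* at no more than 2 counts in any library. The mesenchyme list, led by *Col1a1* and *Col1a2*, summed to 308 CPM in Het1. It was at 44.7 CPM in KO3, 34.1 CPM in Het3 and 15.0 to 21.3 CPM in the rest. Het3 and KO3 were also the pools in which the lens genes peaked, and the part of these tissues in the lens signal was not tested. None of the pigment, mesenchyme, muscle, erythroid, ectoderm or ciliary margin genes passed between Het and KO in the edgeR fit. In the retina list *Atoh7* and *Fgf15* were called lower.

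The vessel list, which summed to 384 to 579 CPM, was split. *Kdr*, a receptor for vascular growth factors, made up most of the sum and was the list's single called gene, at 361 CPM in WT, 363 to 376 CPM in Het and 468 to 562 CPM in KO. *Cldn5* followed at 11.3 CPM in WT, 11.04 to 13.2 CPM in Het, and 14.45, 12.1 and 15.2 CPM in KO1, KO2 and KO3. The rest of the list, *Cdh5*, *Pecam1*, *Tek* and *Tie1*, was lowest in KO1 and KO2. *Cdh5* was at 6.29 CPM in WT, 3.21 to 9.77 CPM in Het, and 0.989, 0.555 and 4.41 CPM in KO1, KO2 and KO3. The log2 fold changes of *Cdh5*, *Pecam1*, *Tek* and *Tie1* lay between -1.92 and -1.40 and did not pass. The pools poor in crystallins were thus also low in *Cdh5*, *Pecam1*, *Tek* and *Tie1*, but not in *Kdr* or *Cldn5*. The part of vessels in the lens signal was not tested.

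**Figure D5:**
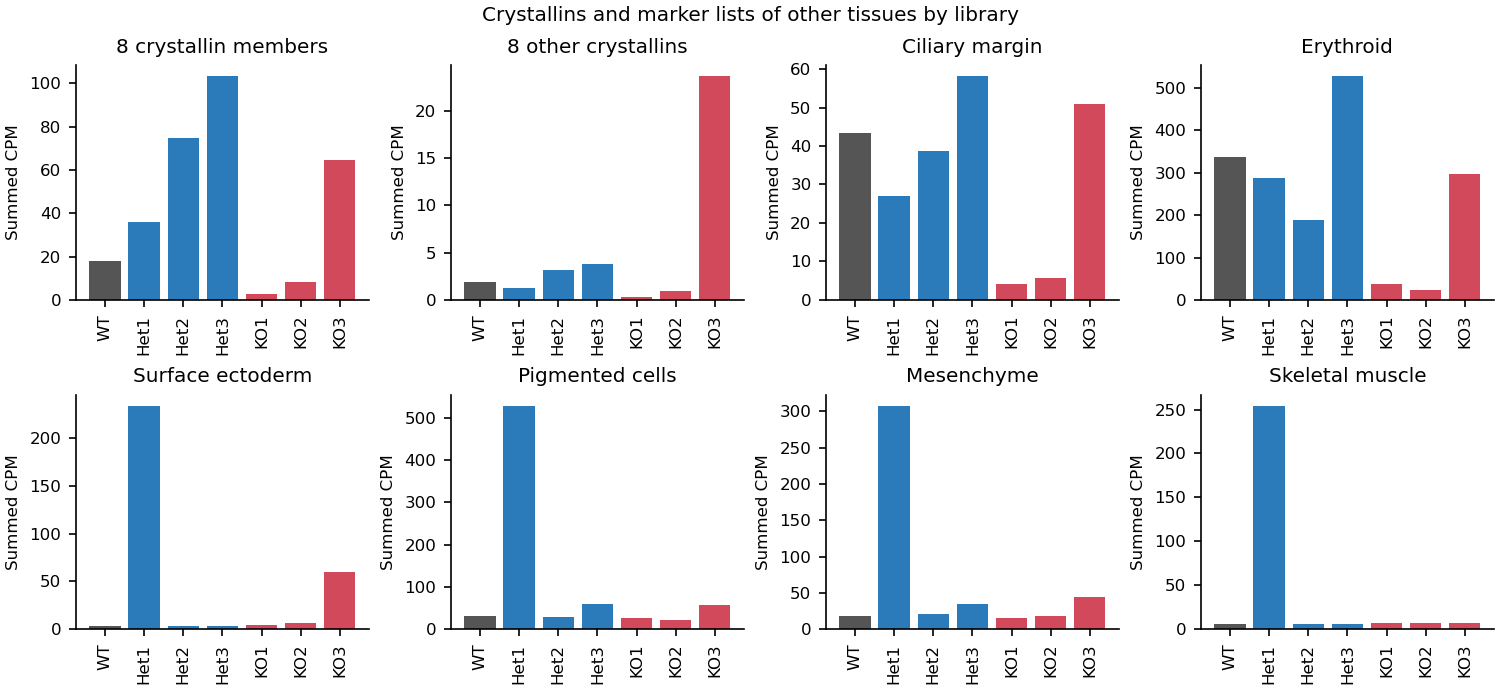
Summed CPM by library of the 8 crystallin members, the 8 other crystallins and 6 marker lists of other tissues, as bars from 0 (grey WT, blue Het, red KO). KO1 and KO2 are low for crystallins, ciliary margin and erythroid genes, KO3 leads the other crystallins at 23.6 CPM, and Het1 leads surface ectoderm, pigment, mesenchyme and muscle.

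Genes whose pattern over the 7 libraries was most like that of the crystallins were ranked by Pearson r of log2(CPM + 0.5) with the mean of the 8 crystallins, among 776 genes with an SD of at least 0.5. No p is given, since the genes were ranked by this value, 7 libraries share their depth and pools, and a high r is to be found among many genes. The top 10 were *Aldh1a7* (r = 0.931), *Wnt16*, *Rec8*, *Aldh1a1*, *Mrc1*, *Slc16a10*, *Adamts9*, *Zic4*, *Kcnj13* and *Crygc* (r = 0.912). *Crygc* was the single lens crystallin among them. Its counts may in part be shared with *Crygb*, which is among the 8 crystallins of the mean. *Aldh1a1*, a retinaldehyde dehydrogenase, was at 243 CPM in WT, at 156, 228 and 335 CPM over the Het pools, and at 68.8, 92.4 and 283 CPM over the KO pools. *Aldh1a7* is its close paralog, so its counts may in part be shared. The 4 ciliary margin genes stood at ranks 15 (*Otx1*), 16 (*Msx1*), 18 (*Bmp4*) and 29 (*Wfdc1*), with r from 0.886 to 0.902.

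The neighbors of *Foxe3* by the same measure were a different set. Among the top 5 were *R3hdml* (r = 0.994), *Gja3* (r = 0.869), *Fam198b* (r = 0.834) and the processed pseudogene *Gm7866* (r = 0.834). *R3hdml* was at 0.235 CPM in WT, at 0.00589, 1.02 and 2.34 CPM over the Het pools, at 0.0152 CPM in KO2 and at 0 counts in KO1 and KO3. Like *Foxe3*, it was near 0 in KO3, where the crystallins were high. The pattern of *Foxe3* was thus shared with genes that include the connexin gene *Gja3*. The mean log2 pattern of the crystallins, which is not that of their sum, was shared with genes that include those of the retinal rim.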

How the data were processed

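Reads of each pool were aligned by the authors to GRCm38 with STAR, run by the rMATS-turbo pipeline, and assigned to genes (GENCODE M10) with featureCounts. The deposited values are raw counts, one column per library, and every row names a gene. The libraries were prepared with a stranded mRNA kit. Versions, whether counting used the strand, and how reads with several alignments were counted are not given in the sources used here. Overlapping genes and paralogs are therefore uncertain.

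Counts were normalized by TMM (factors 0.988 to 1.03) and fitted in edgeR 4.0.16 under R 4.3.3, with genes kept by filterByExpr and a mean per genotype over all 7 libraries. KO was compared with Het by the quasi-likelihood test at the study's limits. The study used DESeq2, which was run as an alternative (version 1.42.0), beside RLE normalization, no filter, the 6 Het and KO libraries alone, a replicate block and each library left out. Scripts were tested on simulated data. Fitted fold changes are on the log2 scale, and CPM per kilobase uses merged exons of GENCODE M21 (GRCm38), matched by identifier. Intervals cover counting error only, and with 3 pools a group an exact permutation test cannot go below 0.1, so none was run.

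The members and gene lists were chosen with earlier results of these data known. Named genes are the 10 members, the genes of each lens list that were called or among its 3 most abundant, the 2 most abundant of each other list, and the 10 and 5 genes most like the crystallins and *Foxe3*. Other genes of the lists that the text names (*Cryga*, *Birc7*, *Mip*, *Bfsp2*, *Crygn*, *Grifin*, *Lim2*, *Lenep*, *Dnase2b*, *Lgsn*, *Msx1*, *Bmp4*, *Hspb1*, *Hspb2*, *Krt14*, *Krt17*, *Krt12*, *Rpe65*, *Rax*, *Cdh5*, *Pecam1*, *Tek*, *Tie1*, *Atoh7* and the genes that share the crystallin name) were chosen after their values were seen. *Crybg1* and *Crybg2* were not analysed here, and some genes that the rule names are not reported here.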

Additional observations from a re-analysis of the deposited data

How the results depend on the processing

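With each Het or KO library left out in turn, the number of lens genes outside the members called lower in KO, 3 in the main edgeR fit, ranged from 0 to 5, and the number of all genes called, 1445, from 386 to 1674. Without Het2, Het3, KO1, KO2 and KO3 the lens count was 0, 1, 1, 1 and 5, and it was 4 without Het1. DESeq2 called 5 lens genes, adding *Mip* and *Grifin*, and 2070 genes in all. With the replicate number as a block, 2 lens genes were called (*Gja3* and *Pitx3*) and 1268 genes in all. The replicate numbers did not pair the pools: deviations of same-numbered Het and KO libraries from their group means correlated at -0.143, 0.249 and -0.006. The replicate block turned 3 members negative, *Cryba1*, *Crybb1* and *Bfsp1*, so that 8 of 10 were below 0. Normalization, the filter and leaving out WT left the signs of the members at 5 and 5. Of the genes most like the crystallins, 5 of 10 were kept with a pseudocount of 2 and 3 of 10 without WT, and for *Foxe3* 1 of 5 and 3 of 5. Levels under 0.0226 CPM in KO1 and 0.0228 CPM in KO2 are within 3 counts. This limits what can be said of *Foxe3* in KO1 and KO2 and of *Crygb* in KO1.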
